A study of Rattus norvegicus with 90 samples.

Results

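Kidney RNA was compared between 24 and 8 h after a high dose of thioacetamide, in 10 of the 90 libraries of a study of liver, kidney, and heart. All libraries labeled as kidney and high dose were taken, 5 at 8 h and 5 at 24 h. Rows of the deposited tables were kept where the target was an Ensembl rat transcript, which left 40071 of 65166 targets. The remaining 25095 targets are genomic intervals.

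The animals were male Sprague-Dawley rats that carried a catheter in the jugular vein, including the controls. Thioacetamide was injected intraperitoneally at 100 mg/kg (high dose) or 25 mg/kg (low dose), and the vehicle was 3 ml/kg of saline. In the kidney, each of the 3 treatments had 5 libraries at 8 h and 5 at 24 h, 30 in all, and each library came from another rat. Rats of the 8 h groups were injected in the morning and had no food until collection. Those of the 24 h groups were injected in the late afternoon, were fed overnight, and had food removed for the last 8 h. Tissue was collected at the same time of day in both cases. The time after exposure therefore cannot be told apart from the clock time of injection and the feeding after it, except by the vehicle rats. These went through the same schedule. Whole kidneys were powdered, so that each library holds cortex and medulla together, and the libraries were made from poly-A RNA with a stranded kit.

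Thioacetamide is a classic hepatotoxicant that is not very reactive itself. Enzymes of the cytochrome P450 and flavin monooxygenase families oxidize it to an S-oxide and further to reactive species that bind to proteins and lipids. The kidney filters blood and recovers most of the filtrate through the tubules, whose cells express transporters and metabolic enzymes that other organs express little, and the loss of such transcripts is a known accompaniment of tubular injury. In RNA from a whole organ, fewer cells of one type and less RNA per cell cannot be told apart.

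Total estimated counts in the high-dose kidney libraries ran from 19170863 to 24877737 at 8 h (median 21501421) and from 21101964 to 31562820 at 24 h (median 27080945). The difference did not pass an exact two-sided permutation test (p = 0.0635, adjusted p = 0.119 over 5 library measures, n = 5 per group). The share of counts on the genomic intervals, which ran from 7.84% to 16.5% at 8 h and from 9.33% to 17.1% at 24 h, also did not (exact permutation p = 0.397, adjusted p = 0.444). Libraries carry MS numbers in their labels, and 3 of 5 libraries at 8 h but 1 of 5 at 24 h have a number above 90, so a term for this was kept in the tests. The labels do not say what the numbers stand for. No 2 of the 30 kidney libraries held near-identical counts.

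The deposited tables name transcripts without their genes. The transcript was therefore the unit, and no marker gene could be looked up. The label of the organ was checked instead with transcripts restricted to 1 organ in the vehicle rats, defined as a mean of at least 1 TPM (a level scaled by length and library) there and at least 10 times the mean of each other organ. By this rule, 1150 transcripts were kidney-restricted, 642 liver-restricted, and 780 heart-restricted. Between 1062 and 1098 of the kidney-restricted transcripts had a count in each high-dose kidney library, and they took from 6.56% to 9.71% of transcript TPM, against 0.299% to 0.642% for the liver-restricted ones. The label of the organ held in all 10 libraries by this measure.

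Between 8 and 24 h after the high dose, 161 of 18840 tested transcripts changed in the kidney (0.855%). Of these, 46 rose (0.244% of those tested) and 115 fell (0.61%). Among the falls, ENSRNOT00000089383 and ENSRNOT00000032290 had the same length and identical values, so the transcripts counted are not all separate measurements. For a call, edgeR's quasi-likelihood test had to give an adjusted p of at most 0.01, and the level had to differ by 1.82-fold or more (0.60 on the natural-log scale). Changes of at least 2-fold were seen for 43 of the 46 and 93 of the 115, and changes of at least 8-fold for 10 and 4. The count rested in part on single libraries: it was 58 without MS-57 and 66 without MS-38, the only 8 h libraries numbered up to 90, and 92 without MS-56 at 24 h. Without MS-36, 37 rose and 64 fell. Among the libraries numbered up to 90 alone, 2 at 8 h against 4 at 24 h, 51 transcripts passed (24 higher), whereas DESeq2 called 375 (161 higher).

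The members kept their direction under these choices. In every one of the alternatives, the 46 transcripts kept a positive value and the 115 a negative value, which the choice of the members favors because the libraries are the same. Among libraries numbered up to 90 their medians on the log2 scale were 1.91 and -1.45. Among libraries numbered above 90, of which only 1 was from 24 h, they were 1.66 and -1.16.

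**Figure D1:**
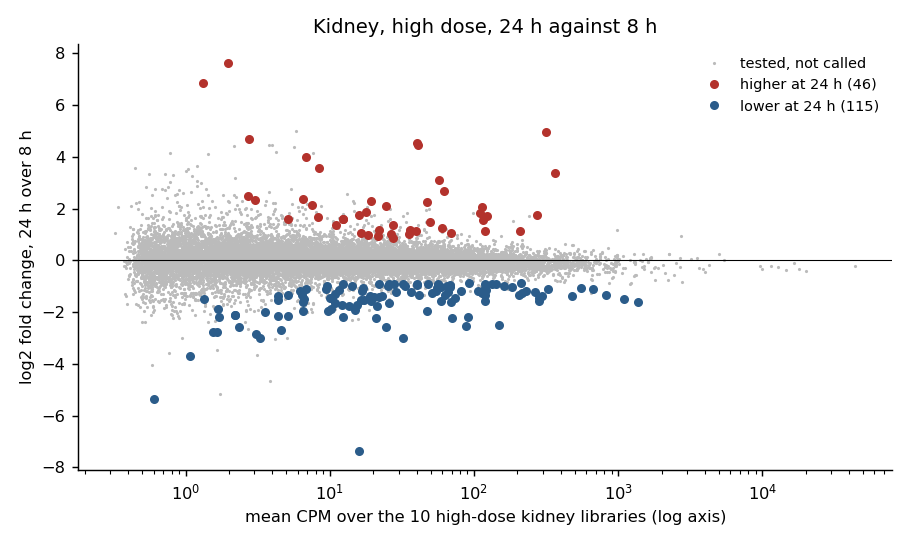
Change between the times against level for the 18840 transcripts tested, with the mean CPM of the 10 libraries on a log axis and the log2 fold change, 24 h over 8 h, on the other. Red points are the 46 transcripts called higher at 24 h and blue points the 115 called lower, with levels from 1.32 to 367 CPM and from 0.601 to 1365 CPM.

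The transcripts that rose had a median log2 fold change of 1.73, with quartiles of 1.19 and 2.46. Those that fell had a median of -1.37, with quartiles of -1.84 and -1.10. Their median levels over the 10 libraries were 26.9 and 25.9 CPM (counts scaled to library size), against 12.5 CPM over all tested transcripts, and their median lengths of 2057 and 2221 bases were near the 2140 bases of all tested. Every 24 h library lay above every 8 h library for 45 of the 46 transcripts that rose (3.6% of all tested did so). Likewise, every 24 h library lay below for 112 of the 115 that fell (3.67% of all tested). The calls were made from these same libraries, which strongly favors such separation, so these counts are descriptive.

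The summed level of the 46 transcripts ran from 942 to 1198 CPM in the 8 h libraries and from 3825 to 4955 CPM in the 24 h libraries. For the 115 transcripts that fell, it ran from 13315 to 18084 CPM at 8 h and from 5984 to 7696 CPM at 24 h. The 5 most abundant of the 115 supplied 39.9% of that sum at 8 h and 40.8% at 24 h.

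The largest rise under the naming rule belonged to ENSRNOT00000013073, a transcript of 993 bases. Its levels at 8 h were 9.70, 57.7, 14.8, 8.48, and 17.1 CPM, and at 24 h they were 688, 488, 847, 342, and 701 CPM. Even the lowest 24 h library was above the highest 8 h library, which was MS-98. The log2 fold change was 4.97 ± 0.67 (SE), with an adjusted p of 0.00345 in edgeR, but 0.022 without MS-38, 0.011 without MS-101, and 0.026 without MS-57. In vehicle rats the levels ran from 4.41 to 47.2 CPM at 8 h and from 2.75 to 45.3 CPM at 24 h, with 1 library in each group standing well above the other 4. After the low dose they ran from 19.2 to 206 CPM at 8 h and from 95.6 to 624.9 CPM at 24 h. This transcript was thus above the vehicle range in every low-dose library at 24 h. Its low-dose change, 2.34 ± 0.64, did not pass (adjusted p = 0.222), nor did the difference of the change between the doses (3.08 ± 0.87, adjusted p = 0.14). In the liver of the high-dose rats it also rose between the times, by 3.95 ± 0.56 on the log2 scale (edgeR adjusted p = 0.000508), and in the heart the value was 0.33 ± 0.39. The difference of its change from that in vehicle, 4.78 ± 1.17, missed the threshold of 0.01 (edgeR adjusted p = 0.0408).

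ENSRNOT00000073099, of 1512 bases, came next. It was nearly silent at 8 h, with 0.0487, 0.183, 0.167, 0.0551, and 0.301 CPM, which are 14 counts in all. At 24 h it reached 9.22, 3.25, 6.34, 2.50, and 5.65 CPM, or 675 counts. The ratio of the summed counts, corrected for library size, was 40.04 (95% exact interval 23.7 to 73.6, counting error only). The fitted log2 fold change was 4.70 ± 0.52 (edgeR adjusted p = 0.00131, and 0.023 in libraries numbered up to 90). Vehicle libraries held from 0 to 5 counts at either time, and the difference of its change from that in vehicle, 4.29 ± 1.09, did not pass (edgeR adjusted p = 0.0488). After the low dose the 8 h libraries held from 0 to 3 counts, and at 24 h it ran from 0.134 CPM to 6.06 CPM, where MS-35 and MS-37 stood apart at 6.06 and 2.79 CPM from the other 3 libraries at or below 0.49 CPM. The difference of its change between high and low dose was -0.297 ± 1.10 (edgeR adjusted p = 0.942). In vehicle rats this transcript is liver-restricted, with a mean of 40.7 TPM ± 15.8 (SD, n = 10) in the liver against 0.0508 TPM ± 0.0539 in the kidney. Its change in the high-dose liver was -0.802 ± 0.234 (edgeR adjusted p = 0.0206). Liver-restricted transcripts took 2.35% of TPM in MS-37, the most of any kidney library. They took 0.400% in MS-35 and from 0.341% to 0.425% in the other 3 low-dose libraries at 24 h. The part of liver RNA in this rise was not tested.

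The largest fall under the same rule belonged to ENSRNOT00000004578, of 2505 bases. At 8 h its levels lay close together, at 57.8, 56.98, 52.7, 63.7, and 55.1 CPM. At 24 h they were 7.22, 5.95, 5.97, 11.02, and 3.70 CPM. The groups were far apart, with a log2 fold change of -3.01 ± 0.22 (SE) and an edgeR adjusted p of 0.000156. Vehicle rats had more of it at 24 h, from 79.7 to 149 CPM, than at 8 h, from 43.1 to 85.3 CPM, although that difference did not pass (0.56 ± 0.17, edgeR adjusted p = 0.999). After the low dose it ran from 29.8 to 66.97 CPM at 8 h and from 5.76 to 37.98 CPM at 24 h, the lowest again in MS-35. The change with time differed between high dose and vehicle by -3.64 ± 0.35 (edgeR adjusted p = 1.37e-05). Between high and low dose the difference, -2.025 ± 0.458, did not pass (edgeR adjusted p = 0.0634). This transcript is kidney-restricted: its mean in vehicle rats was 36.4 TPM ± 11.6 (SD, n = 10) in the kidney, 0.00291 TPM in the liver, and 0.00450 TPM in the heart.

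ENSRNOT00000081912, of 2404 bases, was a less abundant transcript with a fall of nearly the same size. It had 4.43, 6.34, 7.47, 6.17, and 5.31 CPM at 8 h and 0.296, 0.180, 1.01, 1.14, and 0.640 CPM at 24 h. The 24 h values rest on 4 to 24 counts per library. Its log2 fold change was -2.99 ± 0.40 (edgeR adjusted p = 0.00348). That p was between 0.0109 and 0.0218 without MS-38, MS-57, MS-101, or MS-56, and 0.0453 in libraries numbered up to 90. Its change differed from that in vehicle by -3.62 ± 0.40 (edgeR adjusted p = 6.12e-05). The difference from the low dose, -2.267 ± 0.477, missed the threshold of 0.01 (edgeR adjusted p = 0.0428). Vehicle kidneys held from 6.56 to 10.8 CPM at 8 h and from 9.41 to 15.6 CPM at 24 h, so that the high-dose group was below the vehicle range at 24 h in every library. The low dose gave from 3.04 to 6.28 CPM at 8 h and from 2.06 to 6.497 CPM at 24 h. The liver of vehicle rats also held this transcript, at 2.23 TPM ± 0.835 against 4.19 TPM ± 1.06 in the kidney (SD, n = 10 each), and its change in the high-dose liver was 0.25 ± 0.39.

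**Figure D2:**
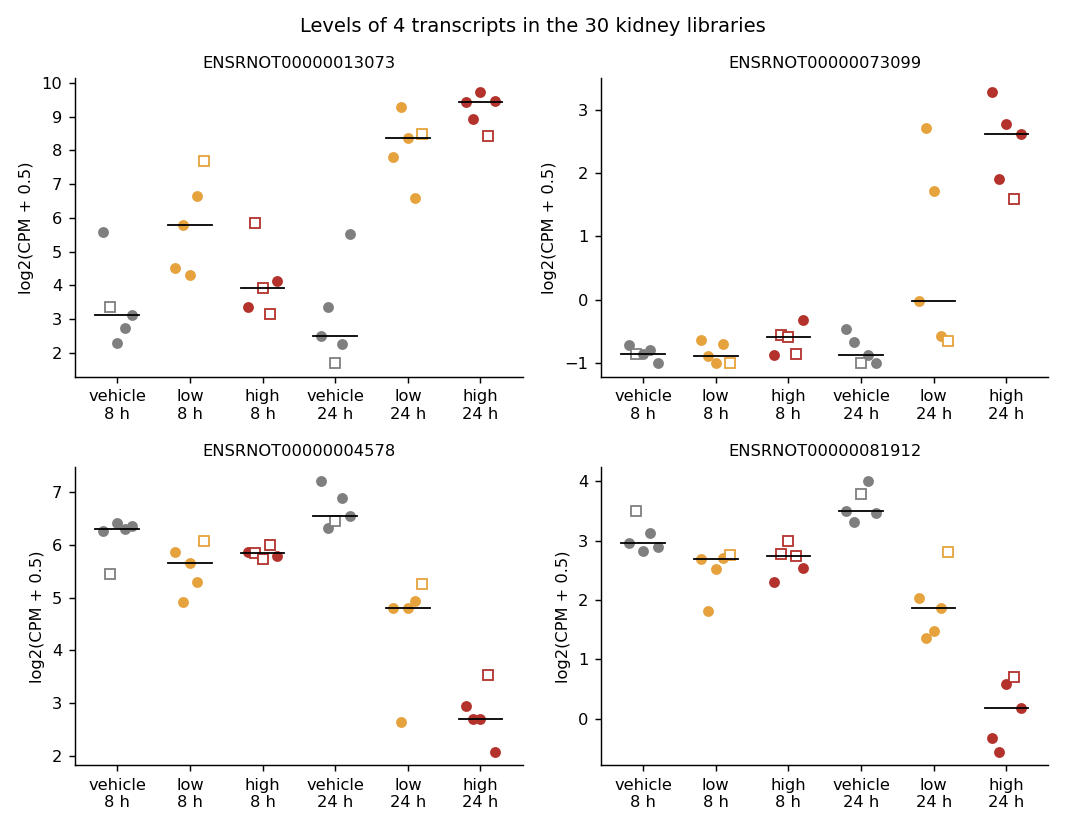
Levels of the 4 transcripts in the 30 kidney libraries as log2(CPM + 0.5), with vehicle in gray, low dose in orange, and high dose in red. Open squares are libraries numbered above 90 and lines are group medians. The 24 h high-dose libraries lie apart from the 8 h ones in each panel, which the naming rule required.

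The vehicle rats give the change between the same times without the compound. In vehicle kidneys, edgeR called 0 of 18676 transcripts (0.0%), with 430 at an unadjusted p under 0.05, and DESeq2 called 2. Of the transcripts that rose after the high dose, 40 were tested in vehicle, and 20 were positive and 20 negative, with a median of 0.00. Those that fell after the high dose tended the other way in vehicle: 94 of 114 had a positive value, against 8970 of 18211 among all tested, and their median was 0.16. This rested in part on single vehicle libraries, since the median was 0.05 with 74 of 114 positive without MS-31, 0.26 without MS-100, and 0.27 without MS-103. None of the 161 separated the times in every vehicle library, which 0.149% and 0.165% of all tested did upward and downward. At shares this small, finding none among 161 does not set the members apart from the other transcripts.

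Tested directly, the change with time differed between high dose and vehicle for 176 of 19959 transcripts (0.882%), more positive after the high dose for 49 and more negative for 127. The count was 474 with DESeq2 and 111 or 78 with limma on TPM. It was 100 without MS-38 (25 and 75). Without MS-57, 28 were more positive and 78 more negative. The count was between 120 and 228 without any other high-dose library. This test used the same high-dose libraries, so the members' values in it are given as a description, with medians of 1.74 for the 46 and -1.58 for the 115.

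After the low dose, edgeR called 0 of 18674 transcripts between the times (0.0%), although 2085 had an unadjusted p under 0.05, DESeq2 called 43, and limma called 1 or 2. The low-dose rats are other animals than the high-dose rats, and their values for the members pointed the same way for most. Of the transcripts that fell after the high dose, 97 of 115 had a negative value after the low dose (9101 of 18289 among all tested), with a median of -0.39. Of those that rose, 35 of the 42 tested were positive (9188 of 18289 among all tested), with a median of 0.44. The median ratio of the low-dose to the high-dose value was 0.256 for the 115 and 0.274 for the 42. The members were chosen for a large change after the high dose, which favors smaller values elsewhere, and 95% of all transcripts tested after the low dose changed by less than 0.77 in either direction.

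The rise after the low dose rested on 1 library. Without MS-35 the median of the 42 transcripts was 0.08 and 25 were positive, whereas leaving out any other low-dose library gave a median from 0.37 to 0.64. The fall was less dependent on it, with a median of -0.30 and 88 of 115 negative without MS-35. In this library the members were nearer to the high-dose level than in the other low-dose kidneys. Measured as a median log2 difference from the mean of the 10 vehicle libraries, the 46 transcripts stood at 1.62 in MS-35, 0.98 in MS-37, and from 0.27 to 0.45 in the other 3 libraries at 24 h, and from 1.91 to 2.64 in the high-dose group. The 115 transcripts stood at -1.20 in MS-35, from -0.68 to -0.30 in the other 4, and from -1.56 to -1.28 in the high-dose group.

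Every 24 h library lay below every 8 h library for 14 of the 115 after the low dose (1.21% of all tested), and above for 3 of the 46 (1.13% of all tested). The test of the difference between the doses itself called 7 of 19849 transcripts (0.0353%), 6 of them more positive after the high dose (0.0302%) and 1 more negative (0.00504%). That count was 8 without MS-101 and from 2 to 4 without each of the other high-dose libraries, was 0 in libraries numbered up to 90, where 2955 had an unadjusted p under 0.05, and was 147 with DESeq2. The 161 changes can therefore not be called particular to the high dose as a group.

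**Figure D3:**
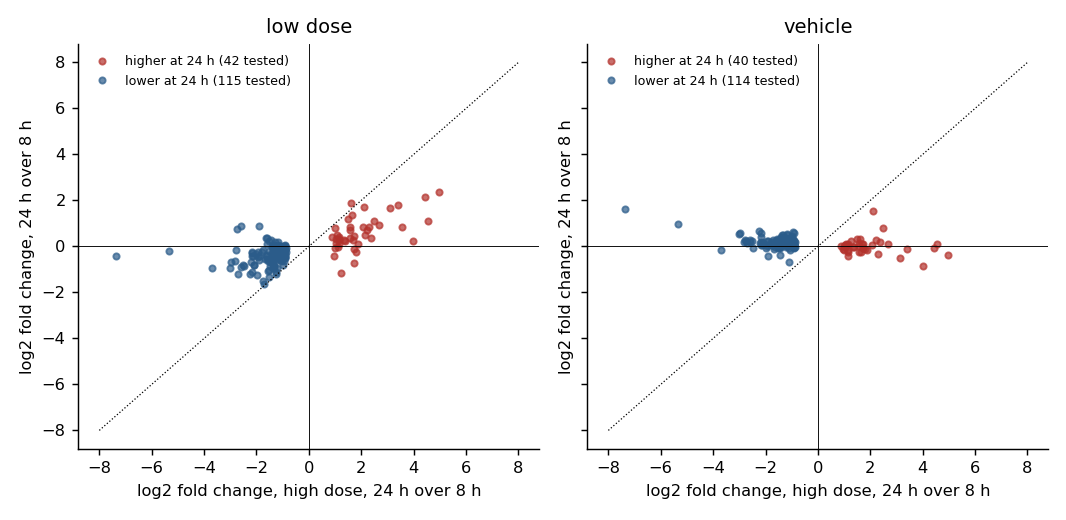
Log2 fold change between 24 and 8 h of the called transcripts after the high dose (horizontal axis) against that after the low dose and with vehicle (vertical axes), with a dotted line where the values are equal. Most low-dose values lie between 0 and the dotted line, and vehicle values lie near 0 with the blue group slightly above it.

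Against vehicle, the transcripts that rose moved further from the vehicle level with time by their median, though not every member did. Their median log2 fold change of high dose over vehicle was 0.50 at 8 h and 2.49 at 24 h. These values share the high-dose libraries with the comparison of the times and are descriptive. Above vehicle at both times were 35 of the 46, 9 were below at 8 h and above at 24 h, and 2 were below at both. These 2 moved toward the vehicle level, from a median of -1.98 at 8 h to -0.213 at 24 h. At 8 h every high-dose library already lay above every vehicle library for 17 of the 46 (5.27% of all tested), and at 24 h for 39 (7.38% of all tested). Every high-dose library lay below every vehicle library at 8 h for 3 of the 46 (6.52%, against 3.44% of all tested).

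The transcripts that fell were sorted into groups by the sign of their values against vehicle. Whether these groups are distinct was not tested. At 8 h, 62 of the 115 differed from vehicle at an unadjusted edgeR p under 0.05, so some signs rest on small values. The larger group, 74 of 115, was below vehicle at both times, with a median of -0.32 at 8 h and -1.93 at 24 h. A further 25 went from above to below (medians 0.51 and -0.91). The last 16 were above vehicle at both times, at a median of 2.02 at 8 h and 0.62 at 24 h, so that they moved toward the vehicle level. At 24 h every high-dose library lay below every vehicle library for 83 of the 115 (5.76% of all tested) and above for 7, a share of 6.09% that is under the 7.38% of all tested. At 8 h the counts were 15 below (3.44% of all tested) and 25 above (5.27% of all tested).

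The low dose gave medians over vehicle of 0.62 at 8 h and 0.93 at 24 h for the transcripts that rose, and of -0.16 and -0.73 for those that fell. These low-dose medians for the rising transcripts are over the 42 tested there, and the difference between the doses at each time was not tested.

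**Figure D4:**
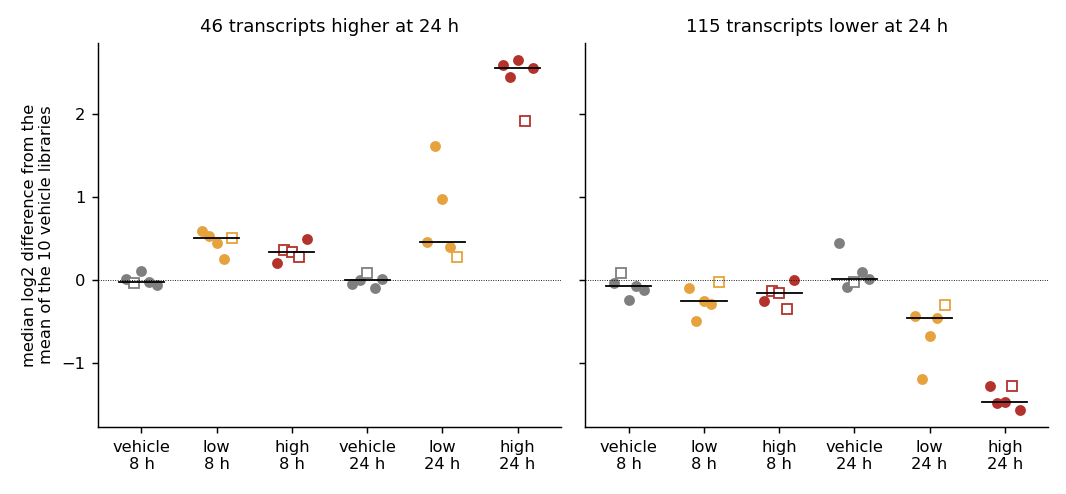
Median log2 difference from the mean of the 10 vehicle kidney libraries over the 46 transcripts higher at 24 h and the 115 lower at 24 h, 1 point per library, with open squares for libraries numbered above 90 and lines for group medians. The high-dose 24 h libraries run from 1.91 to 2.64 and from -1.56 to -1.28, and MS-35 is the low-dose 24 h library nearest to them.

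Kidney-restricted transcripts were common among the falls. Of the 115, 47 were kidney-restricted (40.9%), against 1012 of the 18840 tested (5.37%). In the middle range of levels of the falling transcripts, 10.1 to 89.7 CPM, 36.8% of 57 falling transcripts and 4.64% of 8252 tested ones were kidney-restricted. Organ restriction was taken from vehicle libraries and used no high-dose library. The 47 had levels from 1.08 to 1365 CPM and log2 fold changes from -3.69 to -0.87, with a median of -1.37. At 24 h all 47 were below vehicle, at a median of -1.91, and at 8 h 40 were, at a median of -0.35. The 47 were chosen for low levels in the high-dose 24 h libraries and for high levels in the vehicle kidneys. Both choices favor values below vehicle, so these counts are descriptive.

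As a class, the 1012 kidney-restricted transcripts also shifted downward between the times after the high dose. Their median log2 fold change was -0.16, 687 of 1012 were negative, and 4.64% were called lower (0.61% of all tested) against 0.395% called higher (0.244% of all tested). Of all tested transcripts, 50.1% were negative. After the low dose the median was -0.02 (543 of 1001 negative) and with vehicle it was 0.06 (382 of 1004 negative). The share of transcript TPM on the 1150 kidney-restricted transcripts fell from 8.99% ± 0.476 at 8 h to 7.60% ± 0.709 at 24 h (SD, n = 5 each), with no overlap between the groups. The exact two-sided permutation p was 0.00794, the smallest that 5 against 5 can give (adjusted p = 0.0119 over 3 organs). Low-dose kidneys moved the same way, from a median share of 9.25% at 8 h to a range of 7.70% to 8.89% (median 8.21%) at 24 h. Vehicle kidneys spanned 7.15% to 10.7% at 8 h and 8.35% to 10.9% at 24 h. The high-dose 24 h libraries thus lay below every vehicle library of that time, but 4 of the 5 lay within the vehicle range over both times. The set was defined on these same vehicle libraries, which favors higher shares in them. Whether the change in share differed between the treatments was not tested. Within libraries numbered up to 90 the share was 9.71% and 8.62% at 8 h and from 6.56% to 8.30% at 24 h, and among those above 90 it was from 8.55% to 9.20% against 7.99%.

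The rising transcripts held 8 liver-restricted ones of 46 (17.4%), against 279 of all tested (1.48%), and 4 kidney-restricted ones (8.70%). The filter on counts was passed by 6 of the 8 in vehicle and by 7 after the low dose. A transcript nearly silent at 8 h can enter only through its 24 h level, which favors rises in this share. No share at matched levels was taken for the liver-restricted set. The 8 had a median log2 fold change of 1.63 and were all above vehicle at 24 h, at a median of 2.08. They were chosen for a rise to 24 h and for a vehicle kidney level far under that of the liver. Both choices favor values above vehicle, so this is descriptive. Liver-restricted transcripts took 0.332% ± 0.0297 of transcript TPM at 8 h and 0.467% ± 0.112 at 24 h (SD, n = 5 each, exact permutation p = 0.00794, adjusted p = 0.0119), again without overlap. The range at 24 h was 0.380% to 0.642%, and in vehicle kidneys it was 0.236% to 0.354% over both times. The part of liver RNA in these rises was not tested. As a class, the 279 liver-restricted transcripts had a median log2 fold change of 0.15 after the high dose in edgeR, with 110 negative (39.4%), and 3 were called lower (1.08%, against 0.61% of all tested). On another measure, the difference of mean log2(CPM + 0.5), their median was 0.01, and -0.13 without MS-54, the library with the largest liver-restricted share among the high-dose kidneys. With the low dose that difference was 0.42, and 0.08 without MS-37. For the heart-restricted transcripts the share was 0.145% at 8 h and 0.153% at 24 h (exact permutation p = 0.333, n = 5 each), with 0 called higher and 1 lower of 333 (0.300%, below the 0.61% of all tested).

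**Figure D5:**
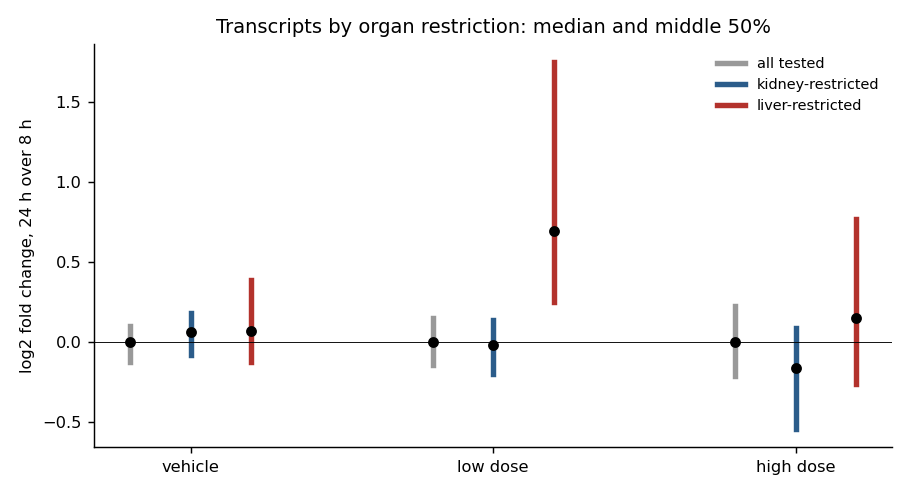
Log2 fold change between 24 and 8 h in the kidney for all tested, kidney-restricted, and liver-restricted transcripts in vehicle, low-dose, and high-dose rats, with points for medians and bars for the middle 50% of transcripts. The kidney-restricted median is lowest after the high dose, at -0.16, and the wide low-dose bar of the liver-restricted set includes MS-37, in which that set took 2.35% of TPM.

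Among the genomic intervals, which were fitted apart from the transcripts, edgeR called 112 of 11458 between the times after the high dose (0.977%), 1 of 10577 after the low dose (0.00945%), and 0 of 11192 with vehicle (257 at an unadjusted p under 0.05).

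The same rats gave liver and heart libraries. In the liver, 2436 of 17074 transcripts were called between the times after the high dose (14.3%), 943 higher (5.52%) and 1493 lower (8.74%). In the heart, 8 of 17540 were called (0.0456%), 2 higher (0.0114%) and 6 lower (0.0342%). The kidney falls had counterparts in the liver, where 65 of the 75 tested were negative, at a median of -1.39, against 7899 of 16116 of all transcripts tested in both organs. The kidney rises did not, with 16 of 38 positive at a median of -0.27, against 8217 of 16116 of all transcripts tested in both organs. In the heart the medians were -0.02 for the rises and 0.00 for the falls. Rats, but not libraries, are shared between the organs, and the differences between organs were not tested. Vehicle livers and hearts were not compared between the times. The only high-dose liver library numbered above 90 was MS-91, at 24 h. The term for library number took it up, so the liver changes rest on the other libraries.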

How the data were processed

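RNA-seq was performed by the authors on 90 libraries with 75-bp read pairs. Reads were pseudo-aligned by the authors to Ensembl rat transcripts (Kallisto 0.42.2 and Rnor 6.0 in the submitters' processing notes). The deposited estimated counts need not be whole and are not normalized, and the deposited TPM is scaled by length. The deposited lengths were used as given. The study's resampled estimates were not used here.

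Estimated counts of transcripts were rounded and tested in R 4.3.3 with edgeR 4.0.16 (filterByExpr on the groups compared, TMM, quasi-likelihood F test, Benjamini-Hochberg adjustment over all transcripts tested). Only the libraries compared entered a fit, with a term for a library number above 90. Differences of the time effect were tested as interactions over 20 libraries at an adjusted p of no more than 0.01. CPM values used TMM library sizes, and medians per library used log2(CPM + 0.5). Organ restriction used vehicle libraries. MS-1 (liver vehicle) and MS-9 (liver low dose) agreed within 1 count for 99.97% of 15845 transcripts, and only MS-1 entered it. Without MS-1, 48 of the 115 falling and 5 of the 46 rising transcripts were kidney-restricted.

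No table used here pairs transcripts with genes, so the gene lists, markers, and sequences that need names were not applied. The members, lists, and tests were chosen with earlier results of these data known. The naming rule took the 2 largest rises and 2 largest falls among calls whose mean level was 2 CPM or more, with no overlap between the times (43 and 105 qualified). Each kidney library is from 1 rat, per the study's methods.

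In counts simulated on this comparison, with 200 of 18840 transcripts changed, edgeR called 79% of 4-fold and 34% of 2-fold changes and 0 unchanged transcripts. DESeq2 1.42.0 called 91% and 46%, and 20 unchanged ones. The changed transcripts were drawn from those with a mean of at least 20 counts, and no effect of library number was simulated. These shares therefore do not cover transcripts with fewer counts. Alternatives were DESeq2, limma 3.58.1 on TPM with a pseudocount of 1 or 0.1, other filters and scaling, other covariates, subsets of libraries, and leaving out each library. Libraries numbered above 90 alone, all targets in the fit, and edgeR's robust setting were chosen after seeing the data. Python 3.11.15, numpy 2.4.6, scipy 1.17.1, pandas 2.3.3, and matplotlib 3.10.9 made the tables and plots.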

Additional observations from a re-analysis of the deposited data

Results flagged for a closer look

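Of 42 sets of 5 libraries examined for a library far from the others, 5 held one, and chance gives about 1 in 20. For ENSRNOT00000013073, the distant libraries were MS-40 among the 8 h vehicle rats at 47.2 CPM (next 9.85), MS-98 among the 8 h high-dose rats at 57.7 CPM (next 17.1), and MS-51 among the 24 h vehicle rats at 45.3 CPM (next 9.71). ENSRNOT00000004578 was low in MS-100 of the 8 h vehicle group, at 43.1 CPM (next 76.6). Over the 46 rising transcripts, MS-106, the only 24 h high-dose library numbered above 90, had a median log2 difference from vehicle of 1.91, where the next library had 2.44.

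Effects of time differed between treatments for 176 transcripts between high dose and vehicle, and for 7 between the doses, in edgeR's interaction test. Among the named transcripts, ENSRNOT00000004578 (-3.64 on the log2 scale, adjusted p = 1.37e-05) and ENSRNOT00000081912 (-3.62, adjusted p = 6.12e-05) differed between high dose and vehicle. The named rises, ENSRNOT00000013073 (4.78, adjusted p = 0.0408) and ENSRNOT00000073099 (4.29, adjusted p = 0.0488), did not pass at 0.01.

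Outside the transcripts, the genomic intervals also changed between the times. After the high dose, edgeR called 112 of 11458 tested intervals (0.977%), 47 higher and 65 lower. With vehicle it called 0 of 11192 (257 at an unadjusted p under 0.05), and after the low dose 1 of 10577 (0.00945%). What these intervals are was not given in the sources used here.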

How the results depend on the processing

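No paired analysis applied, because the 8 h and 24 h libraries came from different rats. The count of 161 (46 higher, 115 lower) became 230 (88 and 142) without the term for library number, 375 (161 and 214) with DESeq2, 244 (94 and 150) with all 30 kidney libraries in one fit, 51 (24 and 27) in libraries numbered up to 90, and 0 (0 and 0; 3257 at an unadjusted p under 0.05) in libraries numbered above 90, of which only 1 was from 24 h. Limma on log2(TPM + 1) gave 118 (51 and 67) and on log2(TPM + 0.1) 110 (42 and 68), with the median of all transcripts at 0.07 and 0.08. The share called higher, 28.6%, was 43.2% and 38.2% in these, 42.9% with DESeq2, 38.5% in the joint fit, and 47.1% in libraries numbered up to 90. Leaving out each library gave from 58 (without MS-57) to 176 (without MS-106), from 22 to 58 higher and from 36 to 118 lower.

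The vehicle count of 0 became 2 (1 and 1) with DESeq2. The low-dose count of 0 became 43 (18 and 25) with DESeq2, 1 (1 lower) and 2 (1 and 1) with limma, and 13 (1 and 12) in the joint fit, and it was 0 without any library. The high dose and vehicle difference, 176 (49 and 127), became 474 (145 and 329) with DESeq2, 111 (55 negative) and 78 (41 negative) with limma, where the median of all transcripts was 0.12 and 0.15, and from 100 to 228 (25 to 69 and 75 to 159) without a high-dose library. The share called more positive, 27.8%, was 50.5% and 47.4% with limma. The difference between doses, 7 (6 and 1), became 147 (83 and 64) with DESeq2, 3 (3 and 0) without the filter, 8 (5 and 3) and 4 (3 and 1) with limma, 0 (0 and 0) in libraries numbered up to 90, and from 2 to 8 (2 to 6 and 0 to 2) without a high-dose library. The causes of these shifts were not tested.

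Over 23 settings the named transcripts kept their signs, and they passed in 19, 21, 22, and 17 of them in the order of the text, with adjusted p up to 0.192, 0.15, 0.107, and 0.113. With 5 libraries per group, changes near 2-fold were mostly missed in the simulation, so a transcript that was not called may still have changed.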
